A study of Mus musculus with 10 samples.

Results

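Endothelial cells line blood and lymphatic vessels, and in the lung they form the capillary side of the gas-exchange surface. The libraries described here were sorted for epithelial cells. Of their 32698 barcodes that passed the quality filters, 294 carried an endothelial profile (0.899%, exact 95% interval 0.8 to 1.01%). That interval covers counting error only, while the share of single libraries ranged from 0.0850% to 4.03%. A barcode was counted as endothelial when it held at least 1000 detected genes, at most 50000 unique molecular identifiers (UMIs) and at most 15% mitochondrial UMIs, no UMI of the leukocyte gene Ptprc, and a UMI of at least 3 of the 5 genes Pecam1, Cdh5, Cldn5, Kdr and Emcn. These 5 genes chose the barcodes, so their levels, and those of every other gene set against the remaining barcodes, are given as a description with no test.

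The 10 droplet 3' RNA libraries analysed here were made from dissociated lungs of adult mice of both sexes, kept on a mixed C57BL/6Brd-Tyrc-Brd background, in 6 groups. All mice carried Sftpc-CreERT2, a tamoxifen-inducible Cre driven by the surfactant protein C gene of alveolar type 2 (AT2) cells, and all were given 3 doses of tamoxifen at 0.2 mg per g body weight. In Confetti mice the RFP+ and YFP+ cells are both wildtype, and each colour gave 1 library, for which the labels give no time and the study's methods name 2 weeks. In Red2Kras mice the RFP+ cells are mutant, and the wildtype cells beside them carry YFP. RFP+ and YFP+ libraries were made from Red2Kras mice at 4 days and at 2 weeks, with 2 replicates each. Each suspension was pooled from a pair of lungs or more and sorted for EpCAM+ cells that were RFP+ or YFP+, so neither the gate nor the Cre was aimed at endothelium. The methods state that the libraries were prepared over a pair of days, and no label assigns a library to a day. The study itself set endothelial clusters aside, and the barcodes described here were rebuilt by the rule above. The 10 libraries held 42012 barcodes and 279015362 UMIs, and 77.8% of the barcodes passed the filters. Barcode sequences found in more than 1 library numbered 239, of which 2 belonged to an endothelial barcode, and no sequence was endothelial in a pair of libraries.

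Lung capillaries are a mosaic of aerocytes, large thin endothelial cells specialised for gas exchange, and general capillary cells, which keep stem-like properties and regulate vascular tone. Arteries, veins and lymphatics add further endothelial types. Endothelial identity is held by ETS, SOX and GATA transcription factors, and the cells signal through VEGF, angiopoietin, Notch and adrenomedullin receptors.

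Among the genes of the rule, Cdh5, the VE-cadherin of endothelial junctions (chromosome 8, 104101625 to 104144511), was detected in 98.0% of the endothelial barcodes and in 0.192% of the other Ptprc-negative barcodes. Cldn5, a tight junction claudin, was detected in 94.2% against 0.278%. Pecam1, the adhesion molecule CD31, was detected in 92.2% against 0.702%. Kdr, the main VEGF receptor, was detected in 62.6% against 0.0529%, and Emcn, the sialomucin endomucin of capillaries and veins, in 51.0% against 0.00993%. The endothelial barcodes had a median of 3950 UMIs and 1844 genes. The 30220 other Ptprc-negative barcodes, most of them AT2 cells, had a median of 5538 UMIs, so the lower depth lay on the endothelial side. These other barcodes leave out 85 Ptprc-negative barcodes with at least 3 of 8 mesenchymal markers.

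The RefSeq promoter table of build GRCm38.p6 held 3 of the 5 genes of the rule, Emcn, Kdr and Cldn5, and these are shown because they define the barcodes. The table gives 250 bases before and 50 bases after each start. The letters AGGAAG, a core that ETS factors such as Erg and Fli1 can bind, were searched on both strands, and matches (AGGAAG or its complement CTTCCT) stand in capitals below. The Emcn window, chr3:137340828-137341127 on the plus strand, held 2 matches, 1 on each strand. The Kdr window, chr5:75978406-75978705 on the minus strand, and the Cldn5 window, chr16:18776597-18776896 on the plus strand, held 0 matches.
Emcn: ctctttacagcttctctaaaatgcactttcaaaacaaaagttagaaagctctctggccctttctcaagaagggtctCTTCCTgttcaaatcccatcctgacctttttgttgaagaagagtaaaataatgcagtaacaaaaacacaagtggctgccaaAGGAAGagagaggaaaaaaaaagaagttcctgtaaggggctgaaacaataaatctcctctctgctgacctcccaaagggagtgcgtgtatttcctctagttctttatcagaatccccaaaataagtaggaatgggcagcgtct
Kdr: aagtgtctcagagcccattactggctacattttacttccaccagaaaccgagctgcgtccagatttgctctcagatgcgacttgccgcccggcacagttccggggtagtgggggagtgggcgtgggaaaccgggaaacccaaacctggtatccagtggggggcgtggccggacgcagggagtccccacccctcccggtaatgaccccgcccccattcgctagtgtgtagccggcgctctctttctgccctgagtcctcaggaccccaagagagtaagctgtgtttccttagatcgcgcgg
Cldn5: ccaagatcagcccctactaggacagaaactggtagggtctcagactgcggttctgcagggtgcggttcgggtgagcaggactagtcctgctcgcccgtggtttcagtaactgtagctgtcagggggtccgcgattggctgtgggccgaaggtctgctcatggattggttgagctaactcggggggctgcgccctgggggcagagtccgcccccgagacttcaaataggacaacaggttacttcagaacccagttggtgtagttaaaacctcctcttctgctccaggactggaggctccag
Of the 25 genes with the highest ratio in endothelial over other barcodes, 15 had a promoter entry and 7 of those 15 (46.7%) held the letters, beside 11613 of all 32851 promoters of the same length (35.4%). A match is a description of the letters and not a binding site.

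Barcodes with UMIs of 3, 4 and 5 of the 5 genes numbered 84, 132 and 78. Just outside, 37 Ptprc-negative barcodes had 2 of the genes, 317 had 1 and 29951 had 0. Calcrl, the receptor chain for adrenomedullin that the rule did not use, was detected in 97.6% of the barcodes with 3 genes, in 94.6% of those with 2 and in 2.84% of those with 1. Ramp2, its partner chain, was detected in 96.4%, 91.9% and 4.10%. The break in both genes lay between 1 and 2 genes, below the rule's limit of 3, while 29.7% of the 37 barcodes with 2 genes had 4% or more AT2 UMIs and 24.3% had at least 3 epithelial markers, against 7.14% and 5.95% of those with 3. A further 4 barcodes with 3 or more of the genes carried a Ptprc UMI, and 101 with 3 or more failed the quality filters, 100 of them for having fewer than 1000 genes.

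The 10 libraries differed widely in how many endothelial barcodes they held, which is the pattern shown in the plot of shares by library. In Confetti lungs, 44 of 3980 RFP barcodes (1.11%, exact 95% interval 0.804 to 1.48%) and 76 of 4177 YFP barcodes (1.82%, 1.44 to 2.27%) were endothelial. At 4 days in Red2Kras lungs, RFP replicate 1 held 34 of 3838 (0.886%, 0.614 to 1.24%) and RFP replicate 2 held 4 of 1736 (0.230%, 0.0628 to 0.589%). At the same time YFP replicate 1 held 77 of 1913 (4.03%, 3.19 to 5.01%) and YFP replicate 2 held 5 of 3090 (0.162%, 0.0526 to 0.377%). The YFP replicate 1 library at 4 days thus held the highest share, and its interval lay above those of all 9 other libraries.

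At 2 weeks, RFP replicate 1 held 24 of 4245 (0.565%, 0.363 to 0.840%) and RFP replicate 2 held 3 of 3528 (0.0850%, 0.0175 to 0.248%). YFP replicate 1 held 23 of 4445 (0.517%, 0.328 to 0.775%) and YFP replicate 2 held 4 of 1746 (0.229%, 0.0625 to 0.586%). The intervals cover counting error only. In each of the 4 Red2Kras groups replicate 1 held the larger share, by 3.84-fold and 24.9-fold in RFP and YFP libraries at 4 days and by 6.65-fold and 2.26-fold at 2 weeks. With a limit of 500 genes, replicates 1 and 2 held 0.987% and 0.359% (RFP) and 3.75% and 0.269% (YFP) at 4 days. At 2 weeks they then held 0.628% and 0.0758% (RFP) and 0.597% and 0.548% (YFP), with the YFP replicates nearly level. At the rule's limit of 1000 genes, summed over the groups, replicate 1 libraries held 158 of 14441 barcodes (1.09%) and replicate 2 libraries 16 of 10100 (0.158%). Other non-epithelial barcodes also differed between the replicate numbers. Barcodes with at least 3 of 8 mesenchymal markers numbered 48 in replicate 1 and 5 in replicate 2, and barcodes with a Ptprc UMI made up 2.85% of replicate 1 and 15.5% of replicate 2. Whether a preparation day lies behind the replicate numbers was not tested.

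**Figure D1:**
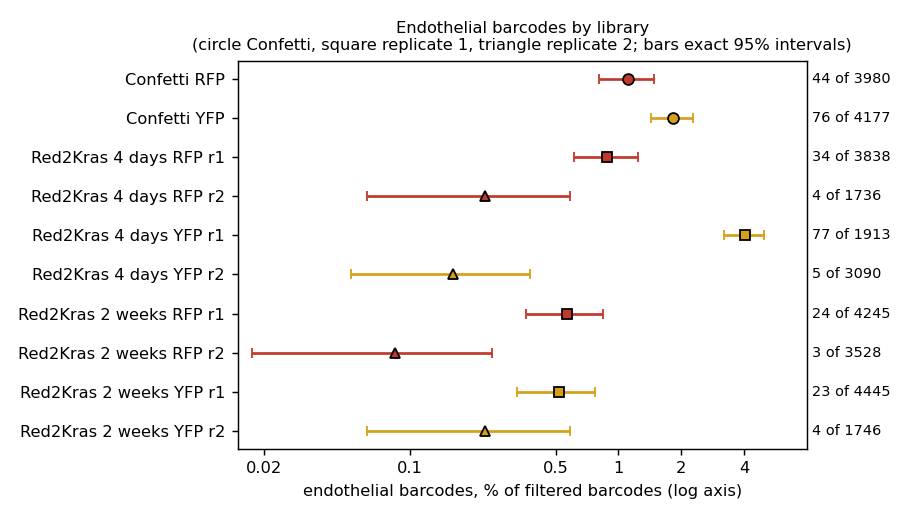
Endothelial barcodes as a percentage of the barcodes passing the quality filters in each of the 10 libraries, with exact 95% binomial intervals (red, RFP; yellow, YFP; r1 and r2, replicates 1 and 2). Red2Kras YFP replicate 1 at 4 days stood at 4.03%, and the 4 Red2Kras replicate 2 libraries lay between 0.0850% and 0.230%.

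The share of endothelial barcodes was compared between colours and times over the 8 Red2Kras libraries. In mutant RFP libraries it averaged 0.442% ± 0.358 (SD, n = 4) and in wildtype YFP libraries 1.23% ± 1.87 (SD, n = 4), a difference of -0.792 percentage points that did not exceed the spread between libraries (2-sided exact permutation test over 70 arrangements, p = 0.714, adjusted over 4 comparisons 0.714, smallest possible p 0.0286). The direction rested on a single library: without YFP replicate 1 at 4 days the difference was 0.139 points, with RFP now higher. At 2 weeks the share averaged 0.349% ± 0.230 (SD, n = 4) and at 4 days 1.33% ± 1.83 (SD, n = 4), a difference of -0.977 points (exact permutation p = 0.371, adjusted 0.533). Without YFP replicate 1 at 4 days it was -0.0768 points. RFP and YFP libraries of 1 time and number are taken to share lungs, so in this comparison each time holds 2 lung pools, and p values over libraries for time, here and below, are too small. Over the means of the pools, 2 against 2, the exact permutation p was 0.667, with 0.333 the smallest possible, a test added after seeing the data. Within replicate 1 libraries the RFP minus YFP difference was -1.55 points and within replicate 2 libraries -0.0377 points, and the 2 weeks minus 4 days difference was -1.91 and -0.0390 points. With 2 against 2 libraries, the smallest p an exact permutation test could give within either number was 0.333.

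Of the 25 genes with the highest ratio to the other filtered barcodes, Emcn ranked 1st and Sema3g 2nd, and the most widely detected was Calcrl. Calcrl (chromosome 2, 84330626 to 84425411) had a UMI in 99.3% of them and in 0.242% of the other Ptprc-negative barcodes. Ramp2 (chromosome 11, 101246028 to 101259546) had one in 99.0% against 0.364%. Tmem100, an endothelial gene downstream of BMP signalling, was detected in 88.4%, Ptprb, the vascular endothelial protein tyrosine phosphatase, in 89.5%, and Cyyr1 in 85.7%. Icam2, a ligand for leukocyte integrins, was detected in 83.0%, Clec14a, an endothelial C-type lectin, in 82.0%, and Sox18, a transcription factor of vessel development, in 77.6%. Lyve1, a hyaluronan receptor known from lymphatic vessels, was detected in 76.5% against 0.291%, and Pcdh17 in 73.5%.

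The remaining leading genes were Adgrl4 in 68.0% of the endothelial barcodes, Ldb2 in 65.3%, Nsg1 in 52.4%, the angiopoietin receptor homologue Tie1 in 51.4%, Tbx3 in 49.0%, Grrp1 in 48.0%, the ligand gene Bmp6 in 38.4%, Dach1 in 36.4%, She in 33.7%, the semaphorin Sema3g in 33.0% and Ccdc85a in 31.3%. All 25 leading genes were detected in under 0.4% of the other Ptprc-negative barcodes. In the 85 mesenchymal barcodes, which are not among those, they were detected in up to 16.5% (Kdr and Tmem100). Over the transcriptome, 21931 genes had a UMI and 41.4% of them had a higher mean per 10000 UMIs in endothelial than in all other filtered barcodes, with a median ratio of 0.654. At least 25% of the endothelial barcodes held 2587 genes (11.8% of those with a UMI), and 317 of them stood at least 10-fold higher there. Of the 2587, 79.4% had a higher mean in endothelial barcodes, with a median ratio of 1.85. These shares over all genes stand beside the list counts given below.

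**Figure D2:**
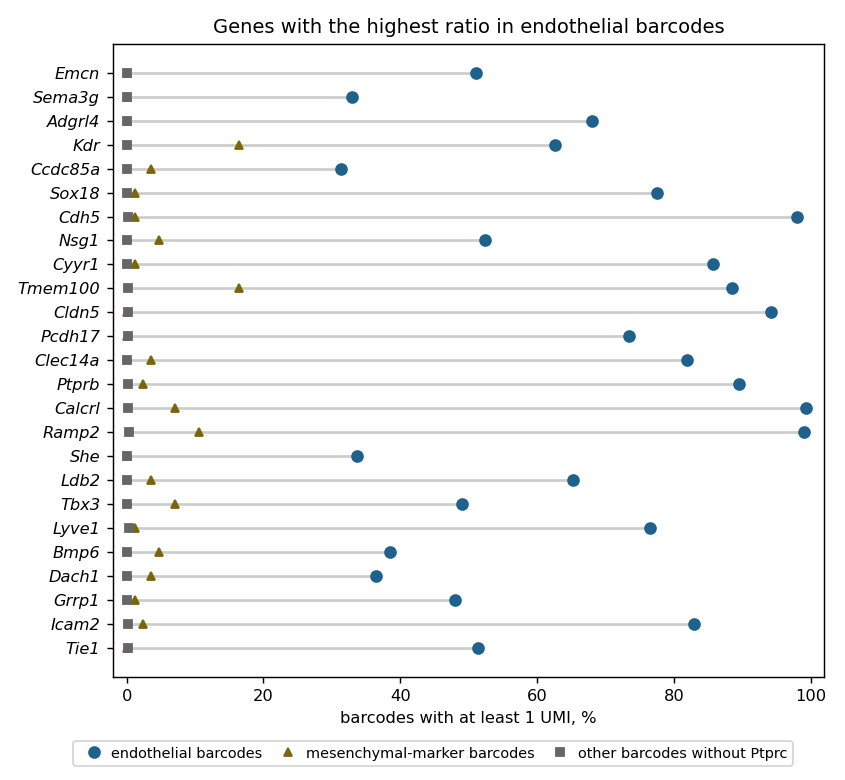
Share of barcodes with a UMI of each of the 25 leading genes, in endothelial barcodes (circles), mesenchymal-marker barcodes (triangles) and other Ptprc-negative barcodes (squares). Calcrl and Ramp2 reached 99.3% and 99.0% of endothelial barcodes, against 0.242% and 0.364% of the other Ptprc-negative barcodes.

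Over the 6 libraries that held at least 10 endothelial barcodes, detection was near its ceiling for some genes while levels varied. Calcrl was detected in 95.8 to 100% of the endothelial barcodes of a library but ranged from 11.2 to 46.3 per 10000 UMIs, lowest in Red2Kras RFP replicate 1 at 2 weeks and highest in Confetti YFP. Ramp2 was detected in 91.3 to 100% and ranged from 20.1 to 33.9 per 10000 UMIs. Tmem100 was detected in 78.3 to 93.5%, at 5.49 to 16.3 per 10000 UMIs, and Plvap, the protein of the diaphragms of fenestrae and caveolae, in 84.2 to 97.1%, at 5.19 to 13.1 per 10000. Ramp2, Tmem100 and Plvap levels were lowest in that same RFP library. Its largest endothelial barcode held 43447 of 233074 UMIs. The epithelial list summed to 32.4 per 10000 there, against a median of 2.56 over the 6 libraries. The part of RNA from other cells in these levels was not tested. Wider ranges of detection were found for Kit, the stem cell factor receptor (52.2 to 82.9%), Car4, a carbonic anhydrase on the capillary surface (30.4 to 61.8%), and Gja4, the arterial connexin 37 (36.8 to 72.7%).

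**Figure D3:**
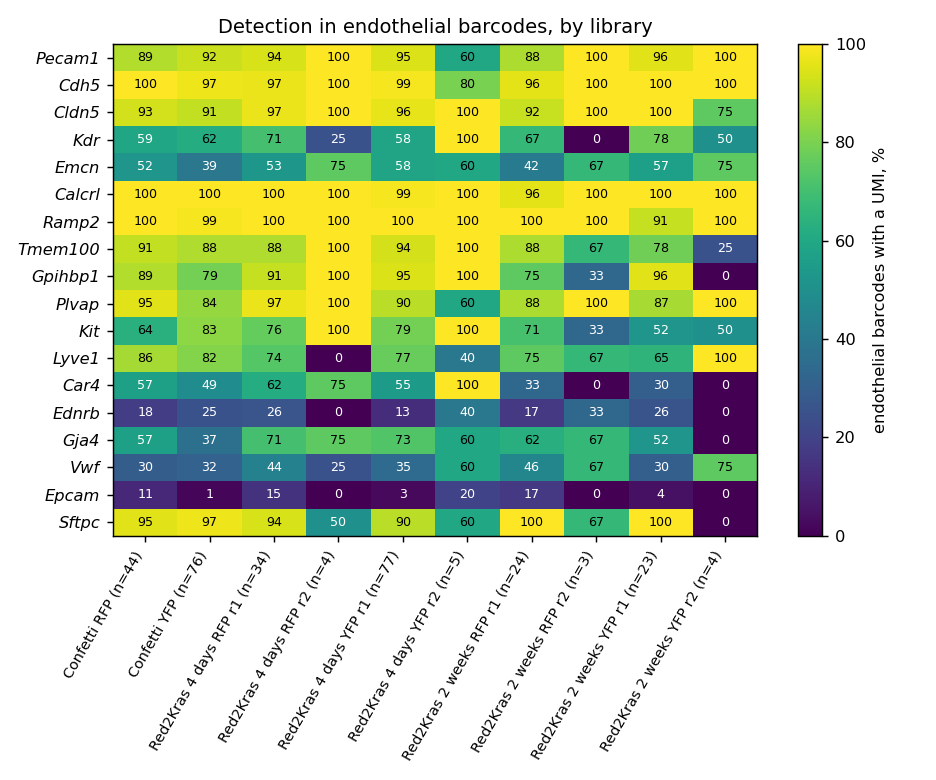
Share of endothelial barcodes with a UMI of endothelial, subtype and epithelial genes in each library, with the number of endothelial barcodes beside its name (r1 and r2, replicates 1 and 2). Calcrl lay between 95.8 and 100% in the 6 libraries with at least 10 endothelial barcodes, and Car4 between 30.4 and 61.8%.

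General capillary genes were the most widely detected subtype list, with 7 of 8 genes in at least 25% of the endothelial barcodes and all 8 at a higher mean there than in the rest. Gpihbp1, which anchors lipoprotein lipase on capillaries (chromosome 15, 75596628 to 75599481), was detected in 86.1% against 0.132% of the other Ptprc-negative barcodes. Cd93 was detected in 84.7%, the semaphorin Sema3c in 81.3% against 9.13%, Kit in 74.5% and the chemokine Cxcl12 in 64.3%, while the apelin receptor gene Aplnr was detected in 17.3%. The aerocyte list had 4 of 8 genes in at least 25% of the endothelial barcodes. Car4 was detected in 50.3%, Prx in 31.0%, Tbx2 in 27.2%, the endothelin receptor Ednrb in 20.1%, Fibin in 19.0% and the ligand gene Apln in 7.82%. Emp2 belongs to that list but was detected in 64.1% of the other barcodes, above its 52.0% in the endothelial ones.

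At least 3 general capillary markers were present in 280 endothelial barcodes (95.2%, exact 95% interval 92.1 to 97.4%) and at least 3 aerocyte markers in 95 (32.3%, 27 to 38.0%), and 87 (29.6%) met both. Aerocyte markers outnumbered general capillary markers in 16 barcodes (5.44%, 3.14 to 8.69%), and the reverse held in 262 (89.1%). These intervals pool all libraries and cover counting error, not the spread between libraries. The 16 were chosen by these lists, so their list genes are a description: Car4 was detected in 93.8% of them and 47.8% of the other 278, Ednrb in 87.5% and 16.2%, Plvap in 37.5% and 92.4%, and Kit in 12.5% and 78.1%. The general capillary gene Sema3c was nearly level, at 75% and 81.7%. Of genes outside both lists, Vwf was detected in 0% of the 16 and 38.1% of the 278, Lyve1 in 25% and 79.5%, and Gja4 in 18.8% and 59.4%. Among the rule genes, Kdr (87.5% and 61.2%) and Emcn (68.75% and 50%) went the other way. Cdh5 (100% and 97.8%) and Cldn5 (100% and 93.9%) were near level, and Pecam1 was lower (81.25% and 92.8%). The 16 had a median of 3024 UMIs, against 3935.5 in the 262. The aerocyte-leading barcodes came from 6 libraries, between 1 and 5 in each. The 16 barcodes of the Red2Kras replicate 2 libraries included 0.

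Over the libraries with at least 5 endothelial barcodes, those with at least 3 aerocyte markers made up 29.4% and 25% in the RFP libraries and 36.4%, 60.0% and 26.1% in the YFP libraries. The means were 27.2% ± 3.12 (SD, n = 2) and 40.8% ± 17.4 (SD, n = 3), a difference of -13.6 percentage points (2-sided exact permutation test over 10 arrangements, p = 0.4, adjusted 0.533). The 60.0% came from only 5 barcodes. At 2 weeks the mean was 25.5% ± 0.769 (SD, n = 2) and at 4 days 41.9% ± 16 (SD, n = 3), a difference of -16.4 points (exact permutation p = 0.2, adjusted 0.533). Both 2-week libraries are replicate 1, taken to be 1 lung pool, so their SD is a spread within that pool. The smallest p this exact permutation design could give was 0.1, so it could not have called either difference. By colour the libraries overlapped, and by time the 2-week libraries (25% and 26.1%) lay below the 4-day libraries (29.4%, 36.4% and 60.0%). Without the 60.0% library, YFP replicate 2 at 4 days, the differences were -4.02 points by colour and -7.34 by time. When 4 of the 5 rule genes were required, that library fell under the limit of 5 barcodes, and over the 2 RFP and 2 YFP libraries left the difference was 1.28 points, with RFP now higher. The 2 weeks minus 4 days difference was -27.6 points with at least 2 aerocyte markers (exact permutation p = 0.1), -27.4 with a limit of 500 genes, which added libraries to make 3 against 4 (exact permutation p = 0.0571), and -2.79 after thinning, which left 2 against 2 without YFP replicate 2 at 4 days.

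Arterial, venous and lymphatic genes were carried by fewer barcodes. At least 3 of 8 arterial markers were present in 124 endothelial barcodes (42.2%). Efnb2, the arterial ephrin ligand, was detected in 68.4%, Gja4 in 57.1%, Sox17 in 48.3% and the Notch target Hey1 in 39.8%, but Gja5, the connexin 40 of larger arteries, in 4.76%. At least 3 of 8 venous markers were present in 45 barcodes (15.3%). Vwf, von Willebrand factor, was detected in 36.1%, Slc6a2 in 6.46% and Selp, P-selectin, in 3.74%. At least 3 of 7 lymphatic markers, a list that includes Lyve1, were present in 7 barcodes (2.38%). Prox1, the lymphatic master regulator, was detected in 2.38% and Flt4, the receptor for VEGF-C, in 10.5%. The chemokine gene Ccl21a was read from 5 barcodes only, with 1247 UMIs in all, in 4 libraries that were the 4 Red2Kras replicate 1 libraries.

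Transcription factors known from endothelium stood higher in the endothelial barcodes for all 16 genes listed, and 12 of them were detected in at least 25%. Epas1, the hypoxia-inducible factor HIF-2 alpha, was detected in 96.9% against 47.5% of the other Ptprc-negative barcodes, and the flow-responsive Klf2 in 93.9% against 28.9%. Foxf1, a factor of lung vessel development, was detected in 82.0% against 0.169%, Ets1 in 72.1%, Gata2 in 52.7%, Fli1 in 40.8% and Erg in 10.9%. Of 6 VEGF and angiopoietin receptor genes, 4 were detected in at least 25%. Tek, the TIE2 receptor, was detected in 75.5% against 0.238%, Flt1, VEGF receptor 1, in 70.7% against 1.66%, and the co-receptor Nrp1 in 58.8% against 43.3%. The Notch list had 7 of 9 genes in at least 25% of the endothelial barcodes, among them the target Hes1 in 72.8%, the receptor Notch1 in 49.0% and the ligand Dll4 in 29.6%.

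Among 15 junction and adhesion genes, all 15 stood higher in endothelial barcodes. Egfl7, a secreted regulator of vessel formation, was detected in 99.3% against 14.3%, S1pr1, the sphingosine-1-phosphate receptor that stabilises the barrier, in 88.1% against 0.182%, and the TGF-beta co-receptor Eng in 83.3% against 0.192%. Barrier and lipid genes were detected in most barcodes, with Cd36 in 97.3% and the caveolin Cav1 in 94.6%, although Cd36 was also detected in 88.9% of the other barcodes. Fabp4 was detected in only 2.72%. Of the clotting and vascular tone genes, Thbd, thrombomodulin, was detected in 76.9% against 0.711% and Ace, angiotensin-converting enzyme, in 74.8% against 2.71%, whereas Nos3, the endothelial nitric oxide synthase, was detected in 5.10%. Among secreted factors, Kitl was detected in 70.7% against 1.45%, Sparcl1 in 54.8%, Pdgfb in 52.4% and Hgf in 17.3%.

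Genes of cell state were also read in the endothelial barcodes. Each of 8 immediate-early genes was detected in at least 25% of them, with Jun in 96.9% against 75.4% of the other Ptprc-negative barcodes and Fos in 93.5% against 71.4%. All 8 interferon genes listed stood higher in the endothelial barcodes. So did 41.4% of all genes with a UMI and 79.4% of those in at least 25% of the endothelial barcodes. Bst2 was detected in 88.1% against 43.3% and Iigp1, an interferon-inducible GTPase, in 46.9% against 1.79%. Cycling genes were scarce: Mki67 was detected in 1.70% against 7.72%, and 1 of 8 genes, Pcna, reached 25%.

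Some genes used as AT1 markers were read in endothelial barcodes. Vegfa was detected in 76.5% of them, Clic5 in 73.8% and Hopx in 62.2%, against 47.4%, 15.2% and 14.7% of the other Ptprc-negative barcodes. The AT1 genes Ager and Cldn18 were detected in 14.3% and 10.9%, below their 88.1% and 86.8% in the other barcodes. Of the pericyte and smooth muscle list, Cox4i2 was detected in 44.9% of the endothelial barcodes and Pdgfrb in 24.1%, and all other members of that list were in under 15%. Of 8 mesenchymal genes none reached 25%, and Dcn, decorin, was at 0 UMIs. Of 10 immune genes, Ptprc was at 0 by the rule, Cd3e and Csf1r were also at 0, Cd52 was detected in 1.36%, and Lyz2, which AT2 cells also express, in 72.1%. Of 4 mesothelial genes, 3 were at 0.

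Sftpc, the AT2 surfactant gene, had a UMI in 92.2% of the endothelial barcodes, 98.2% of the other Ptprc-negative barcodes, 95.3% of the 85 mesenchymal barcodes and 73.3% of the barcodes with a Ptprc UMI, at median depths of 3950, 5538, 3423 and 7720 UMIs. The 92.2% rested on the Confetti and replicate 1 libraries, while in the Red2Kras replicate 2 libraries Sftpc was in 2 of 4 (RFP) and 3 of 5 (YFP) endothelial barcodes at 4 days and in 2 of 3 and 0 of 4 at 2 weeks. The 10 AT2 genes together made up a median of 0.170% of the UMIs of an endothelial barcode, 0.206% of a mesenchymal one and 18.9% of an other Ptprc-negative one. The distribution over endothelial barcodes had a gap: 262 lay under 1%, 4 between 1 and 4%, and 28 at 4% or more, up to 19.4%. In the 262, Sftpc averaged 11.0 per 10000 UMIs over barcodes, Epcam was detected in 1.15%, and 2 barcodes had at least 3 of 6 epithelial markers. In the 28, Epcam was detected in 57.1%, 18 barcodes had at least 3 epithelial markers and 9 were among the highest doublet scores of their library. EpCAM protein was the sort marker, and the Epcam transcript was detected in 6.46% of all endothelial barcodes against 70.4% of the other Ptprc-negative ones.

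**Figure D4:**
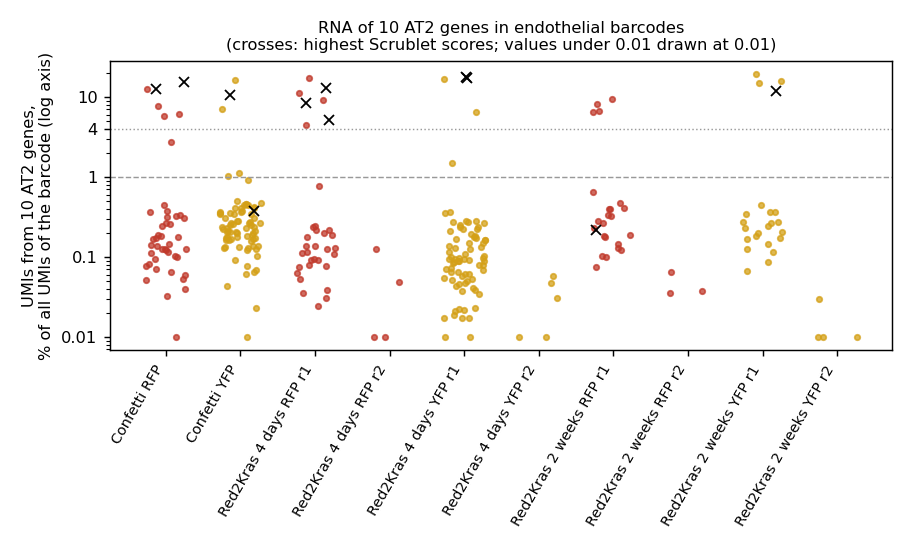
Share of the UMIs of each endothelial barcode that came from 10 AT2 genes, by library (log axis; red, RFP; yellow, YFP; crosses, barcodes among the highest doublet scores; values under 0.01% are drawn at 0.01%). Of the 294 barcodes, 262 lay under 1% and 28 at 4% or more, and the 16 barcodes of the Red2Kras replicate 2 libraries lay at or under 0.124%.

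The barcodes with 1% or more AT2 UMIs came from the Confetti libraries (12 barcodes) and the Red2Kras replicate 1 libraries (20), and 0 came from replicate 2. Detection in the sparse YFP libraries of replicate 2 is given as a description. In the 4 endothelial barcodes of YFP replicate 2 at 2 weeks, Gpihbp1 and Car4 were at 0, Vwf was detected in 75% and Lyve1 in 100%. In the 5 of YFP replicate 2 at 4 days, Gpihbp1 and Car4 were both detected in 100%, Vwf in 60.0% and Lyve1 in 40.0%. These values rest on 4 and 5 barcodes, and no comparison was made between the libraries.

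Xist, which is read in females, and 4 Y-linked genes sorted the barcodes by sex. In both Confetti libraries every endothelial barcode with a call carried Xist alone. In Red2Kras replicate 1 libraries, Xist-only barcodes made up 62.1% (RFP) and 60.3% (YFP) of the sexed endothelial barcodes at 4 days and 44.4% and 56.3% at 2 weeks, beside 82.4%, 84.4%, 35.1% and 26.3% of the other filtered barcodes. In the replicate 2 libraries Xist-only barcodes were at most 0.344% of the other sexed barcodes. Xist and the Y-linked genes were not detected equally often per barcode, so these shares are not proportions of mice.

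Gene levels in endothelial barcodes were compared between mutant RFP and wildtype YFP libraries on counts summed per library, over the 5 Red2Kras libraries with at least 5 endothelial barcodes: RFP replicate 1 at 4 days and at 2 weeks against YFP replicates 1 and 2 at 4 days and YFP replicate 1 at 2 weeks. None of 3510 genes tested passed an adjusted p of 0.05 in edgeR's quasi-likelihood test (0 genes, 0% called, 2 residual degrees of freedom). An unadjusted p under 0.05 was reached by 26 genes (0.741%), the smallest adjusted p was 0.9996, and DESeq2 called 0. The RFP libraries all lay above the YFP libraries in 7.32% of the genes tested and all below in 6.1%. A further fit took each time and replicate number, the assumed lung pool, as a block and left 1 residual degree of freedom. In it 19 genes passed, 14 higher and 5 lower in RFP. With barcodes under 1% AT2 UMIs the blocked fit called 6. YFP replicate 2 at 4 days was the only library of its block and was fitted exactly, so the blocked effects rest on the 4 replicate 1 libraries. Without that library the fit to those 4, also with 1 residual degree of freedom, called 0 of 3596 genes (the lowest adjusted p was 0.969, and 118 had an unadjusted p below 0.05), so none of the 19 calls held there.

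Of the 5 genes with the smallest p, none of which passed, Pglyrp1, a peptidoglycan recognition protein, stood at 176 and 196 counts normalised to library size (CPM) in RFP libraries and at 4.85, 0 and 49.3 in YFP libraries, a log2 fold change of 3.59 (SE 0.75). Its counts were 28 and 37 UMIs against 2, 0 and 4. Vcam1, an adhesion molecule for leukocytes, stood at 189 and 164 CPM in RFP and at 33.9, 0 and 0 in YFP libraries, a log2 fold change of 3.11 (SE 0.72). Leaving out 1 library moved the fold change of Pglyrp1 between 1.97 (without RFP replicate 1 at 4 days) and 5.16 (without YFP replicate 1 at 2 weeks), and that of Vcam1 between 2.71 (without RFP replicate 1 at 2 weeks) and 7.85 (without RFP replicate 1 at 4 days). Both genes lay apart in the libraries of the 2 colours. Both were among the 19 of the blocked fit, and in the fit to the 4 replicate 1 libraries alone the edgeR adjusted p was 0.969 for each. Rgcc had a log2 fold change of 1.30 (SE 0.37) with no overlap between the libraries. The cathepsin genes Ctsc (1.36, SE 0.37) and Ctsh (1.19, SE 0.34) overlapped between colours. Pglyrp1, Rgcc, Ctsc and Ctsh were detected less widely in endothelial than in other Ptprc-negative barcodes, in 6.12%, 37.8%, 34.7% and 16.3% against 32.0%, 74.3%, 92.1% and 93.7%, and Vcam1 in 10.9% against 3.53%. The part of RNA from other cells in these differences was not tested.

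Without the block, members of the vascular lists did not pass in the colour comparison, and with it Vcam1, a gene of the vein and the adhesion lists, passed (edgeR adjusted p = 0.0115, 0.108 with the block under 1% AT2 UMIs and 0.969 in the 4 replicate 1 libraries alone). Without the block, the median log2 fold change was -0.21 for 6 aerocyte genes tested, -0.09 for 7 general capillary genes, 0.01 for 13 transcription factors, -0.01 for 12 junction and adhesion genes and 0.19 for 8 Notch genes, beside 0.02 over all genes tested. The 9 AT2 genes tested had a median of 0.69 and the 5 epithelial genes 0.88, with 0 called and libraries overlapping in each. In the blocked fit, the genes higher in RFP included the epithelial genes Krt18, Krt7, Krt8 and Epcam, and their UMIs lay mostly in RFP replicate 1 at 2 weeks: 263 of 337 for Krt18 and 240 of 272 for Krt7. That library held the endothelial barcode with the most UMIs, 43447 of the 233074 of its 24 endothelial barcodes. In YFP replicate 2 at 4 days, 1 of the 5 endothelial barcodes held 19391 of their 33803 UMIs and all 6 epithelial markers. Its AT2 share was 0.0309%, so it stayed in the fits under 1% AT2 UMIs. The genes lower in RFP included the haemoglobin genes Hba-a1 and Hbb-bs, with 178 of 183 and 792 of 814 UMIs in YFP replicate 1 at 2 weeks.

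Between 2 weeks and 4 days, over the same 5 libraries and the same edgeR fit, 0 of 3510 genes passed (0% called). An unadjusted p under 0.05 was reached by 82 genes (2.34%), the smallest adjusted p was 0.104, and DESeq2 called 1 gene, Retnla. The 2-week libraries all lay above the 4-day libraries in 11.3% of the genes and all below in 8.8%. For time the blocks were colour with replicate number, which pair 4-day and 2-week libraries of different lungs that share only colour and number. The blocked fit called 52 genes, 47 higher and 5 lower at 2 weeks, and 10 when only barcodes under 1% AT2 UMIs were kept. It too fitted YFP replicate 2 at 4 days exactly, and the 4 replicate 1 libraries alone called 0 of 3596 genes (the lowest adjusted p was 0.172, and 316 had an unadjusted p below 0.05), so none of the blocked calls given below held there. Both 2-week libraries are taken to come from 1 lung pool and the 4-day libraries from 2. Without that block and under 1% AT2 UMIs, edgeR called 0 and the smallest adjusted p was 0.9995. Leaving out RFP replicate 1 at 4 days gave 13 genes and leaving out RFP replicate 1 at 2 weeks also gave 13.

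Of the 5 genes with the smallest p, none passed without the block, all 5 passed with it, and none passed in the 4 replicate 1 libraries alone, where the edgeR adjusted p was 0.172 for Retnla and Lrg1, 0.238 for Cldn18, 0.265 for Hp and 0.323 for Cldn3. Retnla, a secreted resistin-like protein, stood at 286 and 283 CPM at 2 weeks and at 6.29, 0 and 0 CPM at 4 days, from 54 and 23 UMIs against 1, 0 and 0. Its log2 fold change was 6.82 (SE 0.75; edgeR adjusted p = 0.104, with the block 2.73e-05), and 5.28 to 8.64 on leaving out 1 library (5.28 without YFP replicate 1 and 8.61 without RFP replicate 1 at 2 weeks, 5.51 without YFP replicate 1 and 8.64 without RFP replicate 1 at 4 days). With 1 UMI at 4 days the fitted value is imprecise: the summed counts gave a ratio of 155 with an exact 95% counting interval of 27.1 to 6216. Lrg1, a glycoprotein that modifies TGF-beta signalling in vessels, stood at 536 and 665 CPM against 50.3, 38.8 and 167, a log2 fold change of 3.39 (SE 0.56; edgeR adjusted p = 0.706, with the block 1.1e-05), and 2.73 (without YFP replicate 1 at 4 days) to 3.8 on leaving out 1 library. Lrg1 lay higher at 2 weeks in both libraries and was also called in the blocked fit under 1% AT2 UMIs, with a log2 fold change of 2.87. The claudins Cldn3 (2.05, SE 0.36) and Cldn18 (2.33, SE 0.52) and the haptoglobin gene Hp (2.57, SE 0.56) lay likewise higher in both 2-week libraries, with blocked edgeR adjusted p of 0.00419, 0.000751 and 0.00191. With the block under 1% AT2 UMIs the edgeR adjusted p was 0.802 for Cldn3 and 0.237 for Cldn18. All 5 are genes of the other barcodes too: Retnla was detected in 2.72% of endothelial and 29.3% of other Ptprc-negative barcodes, Lrg1 in 21.4% and 67.3%, Cldn3 in 14.6% and 92.4%, Hp in 10.9% and 81.7%, and Cldn18 in 10.9% and 86.8%. The part of RNA from other cells in these values was not tested.

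**Figure D5:**
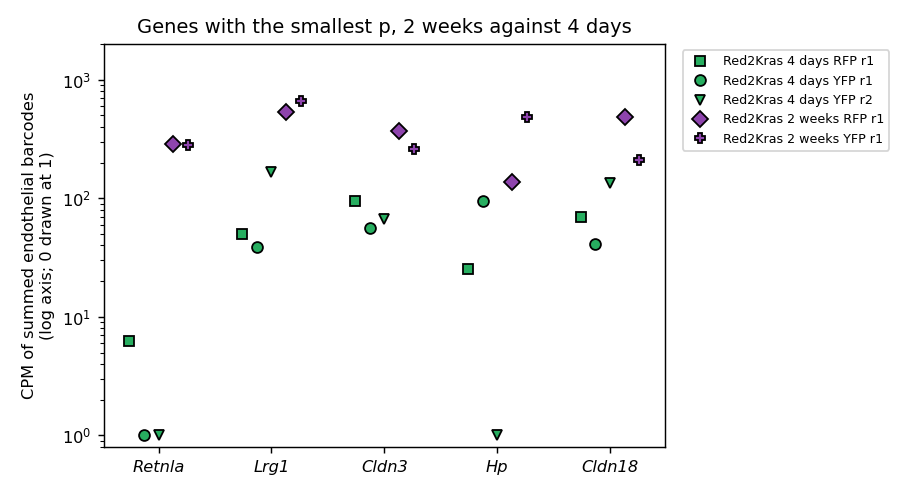
Normalised counts (CPM) of the 5 genes with the smallest p in endothelial barcodes summed per library, over the 5 libraries of the time comparison (log axis; green, 4 days; purple, 2 weeks; a value of 0 is drawn at 1). Retnla stood at 286 and 283 CPM at 2 weeks and at 6.29, 0 and 0 at 4 days. Its edgeR adjusted p was 0.104 unblocked, 2.73e-05 with blocks of colour and replicate number, and 0.172 in the 4 replicate 1 libraries alone.

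The heat shock list was the one whose tested genes all lay apart by time. All 6 of 6 genes lay higher in both 2-week libraries than in the 3 4-day libraries, with a median log2 fold change of 1.22, beside 11.3% of all genes tested and an overall median of 0.01, and 0 of the 6 passed without the block. Hspa1b, an inducible HSP70 chaperone, stood at 2429.6 and 2821 CPM at 2 weeks and at 874, 1043 and 399.7 CPM at 4 days, a log2 fold change of 1.72 (SE 0.50), and it passed with the block (1.40, edgeR adjusted p = 0.0135). Hspa1a stood at 1814 and 2821 against 1019, 999 and 133. Under 1% AT2 UMIs all 6 again lay higher, with a median of 1.30, beside 10.2% of the genes tested there. In the other barcodes of the replicate 1 libraries the sum of the same genes per 10000 UMIs was 50.1 (RFP) and 71.6 (YFP) at 2 weeks and 17.9 and 14.2 at 4 days, while in endothelial barcodes it was 74.5 and 100.6 against 48.4 and 42.9. In the endothelial barcodes of the replicate 2 libraries the sum was 6.21 and 7.93 at 2 weeks and 33.5 and 13.3 at 4 days, the opposite order, on 3 to 5 barcodes per library. In the other barcodes of replicate 2 it was 19.1 and 14.6 against 8.96 and 5.16.

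Of 9 AT2 genes tested, 5 lay higher in both 2-week libraries, beside 11.3% of all genes, with a median log2 fold change of 1.69. None passed without the block, and Sftpd (edgeR adjusted p = 0.013) and Cxcl15 (0.0417) passed with it. The AT2 sum in the endothelial barcodes was 247 (RFP) and 506 (YFP) per 10000 UMIs in replicate 1 at 2 weeks against 263 and 135 at 4 days and 3.25 in YFP replicate 2. The sum was thus lower at 2 weeks in RFP and higher in YFP replicate 1. Of 8 Notch genes, 4 lay lower in both 2-week libraries, beside 8.8% of all genes, with a list median of -0.68 and 0 called: the targets Hes1 (-0.62, SE 0.35) and Hey1 (-0.83, SE 0.40) and the ligands Dll1 (-0.98, SE 0.50) and Dll4 (-0.73, SE 0.52). Under 1% AT2 UMIs, 1 of 7 Notch genes lay lower, beside 7.4% of all genes tested. Of 13 transcription factors tested, Epas1, Ets1 and Tal1 lay lower and Klf2 higher at 2 weeks, beside the same 8.8% and 11.3%, with 0 called. Aerocyte and general capillary genes had medians of -0.24 and -0.46, with 1 of 6 and 1 of 7 lying lower in both 2-week libraries, beside the same 8.8%.

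A comparison of the mouse lines was added after the values had been seen, over the 6 libraries with at least 10 endothelial barcodes: the 4 Red2Kras replicate 1 libraries against the pair of Confetti libraries. By the same pairing the Confetti libraries are 1 lung pool and the Red2Kras libraries 2, so the p values below treat libraries of the same lungs as replicates and are too small. In edgeR 3 of 4166 genes passed (0.072% called, 4 residual degrees of freedom), and 240 (5.76%) had an unadjusted p under 0.05. Ccl21a, a lymphatic chemokine with near-identical copies in the genome, stood at 2238, 580.2, 1751 and 3689 CPM in the Red2Kras libraries and at 0 in Confetti (edgeR adjusted p = 0.00109), at least 196-fold higher against a floor of 3 counts over the Confetti pair. All of it came from the 5 barcodes named above. Ddx3y, a Y-linked helicase gene, stood at 68.0, 68.1, 88.6 and 85.5 CPM against 0 and 0 (edgeR adjusted p = 0.0176), at least 10.04-fold higher against the same floor. Gm47283, a gene model on the Y chromosome that was also counted in Confetti, was lower in Red2Kras, at 161, 124, 203 and 195 against 451 and 897 CPM (log2 fold change -2.02, SE 0.31, edgeR adjusted p = 0.0176). In Confetti no endothelial barcode held a UMI of the Y-linked genes used for the sex calls, so Gm47283 counts do not mark male barcodes. Leaving out either Confetti library ended all 3 calls, and leaving out YFP replicate 1 at 4 days gave 10. Leaving out RFP replicate 1 at 4 days left 1 call, higher in Red2Kras, so Gm47283 was no longer called. Removing the highest doublet scores left 2 calls, 1 in each direction. Mouse line and the sex of the pools cannot be told apart in these libraries. All 4 Red2Kras libraries, at 4 days and 2 weeks alike, lay on the same side of Confetti for the 3 genes. The Red2Kras libraries all lay above Confetti in 7.18% of the genes and all below in 7.25%, and 3 of 4 MHC class II genes and 4 of 6 heat shock genes lay above, with 0 called.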

How the data were processed

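The authors deposited droplet 3' RNA matrices with UMI counts per gene and barcode for the 10 libraries analysed here, aligned to GRCm38 with Cell Ranger, version 3.1.0 in the submitters' processing notes and 5.0.1 in the file headers. The labels name v2 chemistry and the methods v3. Counts were used as deposited, with the study's filters on genes, UMIs and mitochondrial share. Total UMIs per library ranged from 10742481 to 79927159, and precision was set by the 3 to 77 endothelial barcodes of a library. Levels per 10000 UMIs given for a library are the summed UMIs over the summed total of its barcodes. Means per 10000 UMIs over the barcodes of all libraries, and the ratios of those means, are averages of per-barcode values. The endothelial barcodes, gene lists and tests were chosen with earlier results of these data known. The genes named are those of the rule, the 25 with the highest ratio to the other filtered barcodes among genes in at least 25% of the endothelial barcodes, those called or with the 5 smallest p in a comparison, and list members.

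Counts were summed per library (at least 5 endothelial barcodes) and tested with edgeR 4.0.16 (TMM, filterByExpr, glmQLFit and glmQLFTest, Benjamini-Hochberg adjustment, colour and time in 1 model) in R 4.3.3, checked on simulated data, with DESeq2 1.42.0 as an alternative. Shares were compared by exact permutation, and within blocks by exact sign flips, with Clopper-Pearson intervals of 95% from SciPy 1.17.1. Doublets were scored with Scrublet in scanpy 1.11.5 but not removed: its own threshold marked 33 barcodes (0.101%), so the highest scores at 0.8% per 1000 barcodes (940 barcodes, 11 endothelial) were left out as an alternative. RFP and YFP libraries of 1 time and number are taken, from the methods, to come from the same lungs, and deviations of same-numbered libraries correlated at r = 0.128 to 0.281 over 3412 genes in the endothelial barcodes and 0.194 to 0.583 over 14104 genes in the other Ptprc-negative barcodes, a description of libraries that share lungs or only a number. Replicates are pools of lungs. Gene positions are from GENCODE M21. The other alternatives were thinning to 2000 UMIs, other thresholds for the rule, a limit of 500 genes, no limit on Ptprc and leaving out each library in turn.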

Additional observations from a re-analysis of the deposited data

Results flagged for a closer look

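The endothelial share of Red2Kras YFP replicate 1 at 4 days, 4.03%, stood apart from the other 3 YFP libraries of Red2Kras lungs, with a gap to its nearest neighbour of 0.908 of the whole range against a critical value of 0.829 (Dixon's 95% criterion, which chance alone exceeds in about 1 of 20 groups). Among the 4 libraries at 4 days its gap was 0.813 of the range, under that value. Its mesenchymal barcodes made up 0.732% and its Ptprc barcodes 4.55% of the filtered barcodes. The part of either in the endothelial share was not tested.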

How the results depend on the processing

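The share of endothelial barcodes over all libraries moved to 1.01% with 2 of the 5 rule genes, to 0.642% with 4 and to 0.653% after thinning. The share of them with at least 3 aerocyte markers moved to 41.4% with 4 rule genes, 26.8% after thinning and 53.1% with 2 aerocyte markers. The RFP minus YFP difference turned to 0.139 points without YFP replicate 1 at 4 days, and that of aerocyte markers to 1.28 points with 4 rule genes, which also dropped YFP replicate 2 at 4 days (-4.02 without that library alone). Leaving out 1 library at a time gave -1.15 to 0.139 points for colour, -1.36 to -0.0768 for time (-0.0768 without YFP replicate 1 at 4 days), -21.0 to -4.02 for aerocyte markers by colour and -22.6 to -7.34 by time. With the replicate number as a block, shares differed by -0.792 (exact permutation p = 0.5) and -0.977 points (exact permutation p = 0.25) for colour and time, and aerocyte markers by -4.02 and -7.34 points (exact permutation p = 0.5 for both).

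For genes, edgeR with the block called 19 by colour and 52 by time, and 6 and 10 under 1% AT2 UMIs. The block fits YFP replicate 2 at 4 days exactly, and without that library edgeR called 0 and 0. With no filter on low counts 10, 22 and 64 genes were called by colour, time and line. By time DESeq2 called 1 and the stricter rule of 4 genes called 5, and by line the stricter rule called 1. Leaving out 1 library gave 0 to 8 genes by colour (8 without RFP replicate 1 at 4 days, 2 without RFP replicate 1 at 2 weeks), 0 to 13 by time and 0 to 10 by line. The causes were not tested. Where an arm kept 1 library, its spread was assumed equal to that of the other groups. Of 167 alternatives for single genes, 135 kept their direction and side of the threshold, 21 moved past it, 11 fell short of it and 0 reversed. The 3 to 5 endothelial barcodes of each Red2Kras replicate 2 library limit every comparison that needs them.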

Other observations

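Platelet genes were read in a minority of the endothelial barcodes. Ppbp, a platelet chemokine, was detected in 10.5% of them and in 0.0993% of the other Ptprc-negative barcodes, and Gp9, a platelet glycoprotein, in 4.08% against 0.0132%, while Pf4 was detected in 18.7% and 18.0%. At least 3 of 6 platelet and erythroid genes were present in 11 endothelial barcodes (3.74%).

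The mesenchymal list was led by Col1a2, detected in 15.3% of the endothelial barcodes, and at least 3 of its 8 genes were present in 17 (5.78%). MHC class II genes were detected in fewer endothelial barcodes than other Ptprc-negative ones, with Cd74 in 57.1% against 95.9% and H2-Aa in 41.2% against 88.8%.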
